A study of Rattus norvegicus with 12 samples.

Results

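The Ly6 superfamily joins small surface and secreted proteins built on the LU domain, a compact fold of disulphide-linked loops. Most of them are held in the outer leaflet of the plasma membrane by a glycosylphosphatidylinositol (GPI) anchor, and they act there as receptors, as inhibitors of complement or as modulators of other receptors. Several are interferon-inducible or mark stem and progenitor cells, and many of the Ly6 genes proper lie side by side in a cluster on 1 chromosome. Described here are 8 of 14506 genes measured under 1 symbol: Ly6al, Ly6i, Ly6e, Lypd2, Lypd3, Lypd6, Cd59 and Plaur. They belong to the family by name, and they were selected on measured values as well: Ly6al, Lypd2 and Ly6i had been among the largest falls at low osmolality. The values of all 8 in the 24 h and 48 h comparisons are therefore given as a description, without p-values. Where a member is said to be called in these comparisons, this describes the fit over all genes and is no test of that member. Cd59 stands on the array under its rat symbol Cd59b, of which Cd59 is a listed synonym. Each of the 8 had 1 probe set, and 0 shared a probe set with another named gene.

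Messenger RNA was measured in primary cultures of the inner medullary collecting duct (IMCD), where the final concentration of urine is set, from kidneys of male SD rats aged 7 weeks. All cultures grew for 4 days in hyperosmolar medium of 640 mOsm/kg. They then stayed at 640 mOsm/kg for 24 h or 48 h, or were moved to 300 mOsm/kg for 24 h or 48 h. Each of these 4 groups had 3 samples on 1 Affymetrix rat gene array each, 12 arrays in all. No sample was taken before the step, and the labels give neither pooling of animals nor whether the 3 samples of a group were separate cultures, so SDs, SEs and p-values cover the spread among these samples alone, and that spread may be technical. Values are the deposited log2 expression values, 1 unit standing for a doubling, and a change is the mean at 300 minus the mean at 640 of the same time. In these whole cultures fewer cells that make a transcript and less of it per cell cannot be told apart.

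The arrays did not share 1 scale, and this enters the values below. The array median over all genes ranged from 6.81 to 6.97 for the 48 h samples and from 7.43 to 7.58 for 4 of the 24 h samples. Replicate 1 at 300 and replicate 3 at 640 of 24 h stood apart with 6.89 and 6.90. Counts are therefore given on the deposited values and on arrays centred on their own medians. The epithelial markers Epcam, Cdh1, Krt8 and Krt18 had group means between 11.75 and 13.01, and the water channel Aqp2, which defines collecting duct principal cells, had 10.95 ± 0.74 and 11.51 ± 0.09 at 640 (SD, n = 3) after 24 h and 48 h. At 300 Aqp2 had 7.31 ± 0.09 and 7.10 ± 0.51, near the array medians. The principal cell markers Scnn1a, a sodium channel subunit, and Hsd11b2, which inactivates glucocorticoids, had group means from 5.62 to 6.55 and from 6.02 to 6.36, below the array medians.

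Ly6al, a rat relative of the mouse stem cell antigen gene Ly6a, which RefSeq lists as its synonym, varied most among the 8. At 640 it read 10.46, 9.86 and 8.93 on the 3 arrays of 24 h and 10.72, 11.65 and 10.40 on those of 48 h. At 300 it read 4.49, 6.84 and 6.12 after 24 h and 4.89, 5.71 and 4.96 after 48 h. All 6 arrays at 640 were above all 6 at 300. The change was -3.94 ± 0.52 (SE), 15.3-fold lower, at 24 h and -5.74 ± 0.52, 53.3-fold lower, at 48 h. In order of level the groups ran from 48 h at 640 (10.92 ± 0.65, SD, n = 3) and 24 h at 640 (9.75 ± 0.77) to 24 h at 300 (5.81 ± 1.20) and 48 h at 300 (5.19 ± 0.46). The arrays of the 2 times overlapped at 640 and at 300 on this scale. On centred arrays the times still overlapped at 300, but at 640 Ly6al stood 2.45 ± 0.52 above the array median after 24 h and 4.04 ± 0.69 after 48 h, without overlap. Without replicate 1 at 300 the change at 24 h was -3.27.

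Lypd2, a small LU domain gene of the same chromosome, followed with 7.94, 8.16 and 7.04 at 640 and 5.37, 6.16 and 5.78 at 300 after 24 h. After 48 h it read 8.72, 9.49 and 7.90 at 640 and 5.36, 5.79 and 5.16 at 300. The 2 osmolalities did not overlap at either time. The change was -1.95 ± 0.37 (SE), 3.86-fold lower, at 24 h and -3.27 ± 0.37, 9.62-fold lower, at 48 h. Its levels at 300 were close at the 2 times (5.77 ± 0.39 and 5.44 ± 0.33, SD, n = 3). At 640 they were 7.72 ± 0.59 after 24 h and 8.70 ± 0.80 after 48 h, with overlapping arrays. On centred arrays they were 0.42 ± 0.24 and 1.82 ± 0.85 above the array median, without overlap.

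Ly6i, another Ly6 gene of the cluster, had lower readings and a wider spread. After 24 h it read 6.33, 7.34 and 5.16 at 640 and 4.02, 5.72 and 5.47 at 300, and here the groups overlapped through replicate 3 at 640, 1 of the arrays with a low median. On centred arrays they did not overlap. After 48 h it read 6.41, 7.56 and 6.47 at 640 and 4.50, 4.72 and 3.44 at 300, without overlap. The change was -1.20 ± 0.54 (SE), 2.30-fold lower, at 24 h and -2.59 ± 0.54, 6.03-fold lower, at 48 h. No detection calls were used here, so how near the values at 300 lie to background is unknown for these 3 genes, and the folds are ratios of measured values.

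Ly6e, which interferon induces in many cells, had smaller differences. It read 9.68, 10.71 and 8.63 at 640 and 8.71, 10.88 and 9.67 at 300 after 24 h, and 9.29, 9.72 and 8.97 against 8.58, 9.29 and 8.79 after 48 h. The groups overlapped at both times, with changes of 0.08 ± 0.51 and -0.44 ± 0.51 (SE). Its arrays within a group differed by up to 2.17, more than the groups did.

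**Figure D1:**
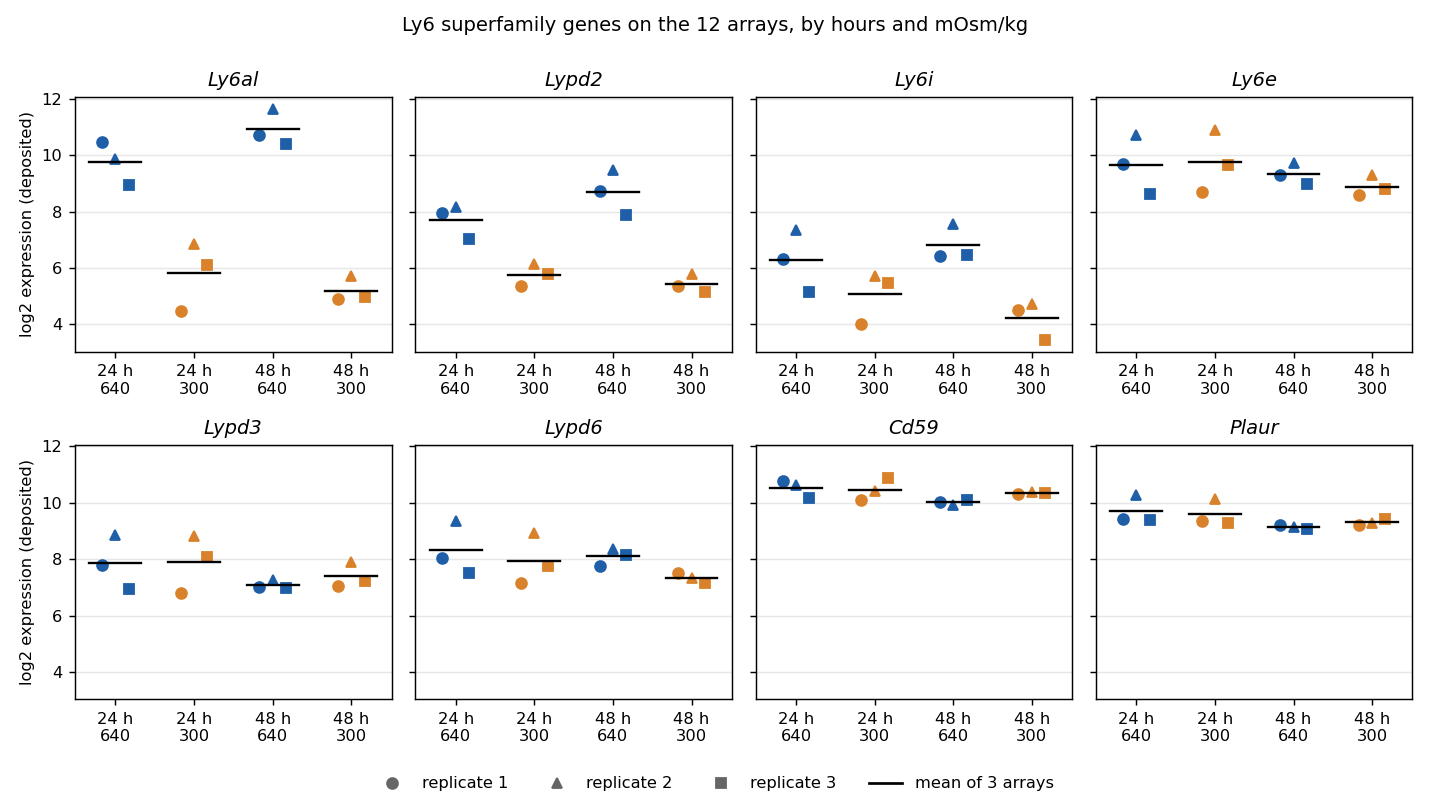
Deposited log2 expression of the 8 genes on the 12 arrays, 1 panel a gene, by hours and mOsm/kg (blue 640, orange 300), with a marker for each replicate number and a line at the mean of 3 arrays. Ly6al, Lypd2 and Ly6i are lower at 300 than at 640, from 10.92 to 5.19 for Ly6al at 48 h, while the arrays of Ly6e, Lypd3 and Plaur overlap between the osmolalities at both times.

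The other members act in proteolysis at the cell surface, in Wnt signalling and in protection from complement. Plaur, the urokinase receptor, focuses plasminogen activation on the cell surface. It read 9.44, 10.26 and 9.40 at 640 and 9.36, 10.14 and 9.28 at 300 after 24 h. After 48 h the readings were 9.23, 9.13 and 9.06 at 640 and 9.22, 9.29 and 9.44 at 300. The groups overlapped at both times, with changes of -0.10 ± 0.27 and 0.18 ± 0.27 (SE). Lypd3, also known as C4.4a, is a relative of the urokinase receptor made by stratified epithelia. It read 7.78, 8.85 and 6.93 at 640 and 6.81, 8.83 and 8.08 at 300 after 24 h. After 48 h it read 7.00, 7.27 and 6.98 at 640 and 7.06, 7.89 and 7.22 at 300. These groups overlapped as well, with changes of 0.06 ± 0.48 and 0.31 ± 0.48.

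Lypd6, which enhances Wnt signalling through the coreceptor Lrp6, read 8.04, 9.37 and 7.52 at 640 and 7.14, 8.93 and 7.75 at 300 after 24 h, with overlap. After 48 h it read 7.77, 8.37 and 8.16 at 640 and 7.49, 7.33 and 7.16 at 300, where every array at 300 was below every array at 640. The changes were -0.37 ± 0.44 and -0.77 ± 0.44 (SE). Cd59, the inhibitor of the membrane attack complex of complement, read 10.78, 10.64 and 10.16 at 640 and 10.08, 10.42 and 10.88 at 300 after 24 h. After 48 h it read 10.03, 9.91 and 10.10 at 640 and 10.32, 10.39 and 10.36 at 300, the 1 member whose arrays at 300 were all above those at 640. Its changes were -0.07 ± 0.23 and 0.34 ± 0.23.

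In counts, 1 of the 8 members was called lower at 24 h (Ly6al) and 3 at 48 h (Ly6al, Lypd2, Ly6i), with 0 called higher at either time, by limma at a Benjamini-Hochberg adjusted p under 0.05. Of all 14506 genes 0.0758% were called lower and 0.0138% higher at 24 h, and 0.545% lower and 0.172% higher at 48 h. On centred arrays 2 members were called lower at 24 h, Lypd2 in addition, against 0.379% lower and 0.276% higher among all genes. At 48 h the same 3 were called there, against 1.33% lower and 0.524% higher. The arrays at 300 lay wholly below those at 640 for 2 members at 24 h and 4 at 48 h, and wholly above for 0 and 1. Among all genes this held for 2.69% and 6.62% below and 1.59% and 7.13% above. Since 3 members were selected on these comparisons, nothing is read from the members' counts. The call of Ly6al at 24 h ended in a fit without replicate 1 at 640 and in a fit of the 6 arrays of that time alone. The call of Ly6i at 48 h ended without any 1 of the 6 arrays of that time, and also without replicate 3 at 300 or replicate 1 at 640 of 24 h.

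The changes of Ly6al, Lypd2 and Ly6i were all larger at 48 h than at 24 h, by 1.80 ± 0.74, 1.32 ± 0.53 and 1.39 ± 0.77 (SE) on the log2 scale. For this difference between times limma called 0 of 14506 genes (0%), with 64 genes at an unadjusted p under 0.05, and 4 on centred arrays (0.0276%), none of them a member. These 64 are a smaller share than the 0.05 that would be met without any change. Arrays of both osmolalities deviated together in pairs, and the fit left this shared part in the SEs. The SEs and p-values of this difference may therefore be too large, and the 0 called does not show that changes are absent. For the other 5 members the changes differed between times by 0.52 or less. A test that the choice of members did not use is that of time itself, 48 h minus 24 h averaged over both osmolalities. It called 0 of the 8 on the deposited values, with 1 at an unadjusted p under 0.05, and 0 on centred arrays, with 2. Such a p was met by 7841 of all 14506 genes on the deposited values and by 2115 on centred arrays. Of all genes 33.3% were called on the deposited values, where the median over genes was -0.40, and 1.47% on centred arrays. On centred arrays Lypd2 had 0.75 ± 0.22 (SE, adjusted p = 0.126), Ly6al 0.70 ± 0.29 (adjusted p = 0.276) and Ly6i 0.27 ± 0.29 (adjusted p = 0.724). The other 5 lay between -0.22 and 0.11.

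Within the groups the members' arrays shared an order for several genes. Ly6i, Ly6e, Lypd2 and Lypd3 read highest on replicate 2 in all 4 groups, which held for 12.3% of all genes, and for the same 4 members and 9.05% of genes on centred arrays. Over all genes, replicate 2 at 300 and replicate 2 at 640 deviated together from their group means at both times, with correlations over genes of 0.844 at 24 h and 0.795 at 48 h. What sets replicate 2 apart was not tested.

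To set the members beside the rest of the superfamily, 20 more of its genes measured on the array were examined in the same fit. They were listed by name, and whether each encodes an LU domain was not examined. They are what remained of the family after the members were taken out, 3 of them selected on their falls. The near absence of calls among these 20 follows in part from that split. Among all 28 measured family genes 1 was called at 24 h and 3 at 48 h, all of them members named above. At 24 h 0 of 20 were called by limma, with 0 at an unadjusted p under 0.05, and at 48 h 0 of 20, with 1 at an unadjusted p under 0.05. On centred arrays 0 were called at either time, with 1 at an unadjusted p under 0.05 at each. Over all 14506 genes 421 and 687 had such a p at 24 h and 48 h, and 790 and 1186 on centred arrays. Their median change was -0.10 at 24 h and -0.03 at 48 h, beside -0.02 and 0.02 over all genes. The 8 members had medians of -0.24 and -0.61. Since 3 members were selected on these comparisons, nothing is read from the members' medians. The 1 gene at 48 h was Lynx1, a GPI-anchored modulator of nicotinic acetylcholine receptors, with -1.12 ± 0.46 (SE, adjusted p = 0.804, and 0.155 on centred arrays). Its 3 arrays at 300 (6.48, 7.23 and 6.31) lay below those at 640 (7.34, 8.36 and 7.68). Lypd6b and Pinlyp were, beside Lynx1, the brightest of the 20, and had -0.04 ± 0.28 and -0.06 ± 0.31 at 48 h. Pinlyp still stood below the array medians, with centred group means from -0.20 to -0.03. For time, Ly6d, Ly6g5b, Ly6g6f and Lypd1 were called lower at 48 h on the deposited values and 0 of 20 on centred arrays, with 1 at an unadjusted p under 0.05.

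**Figure D2:**
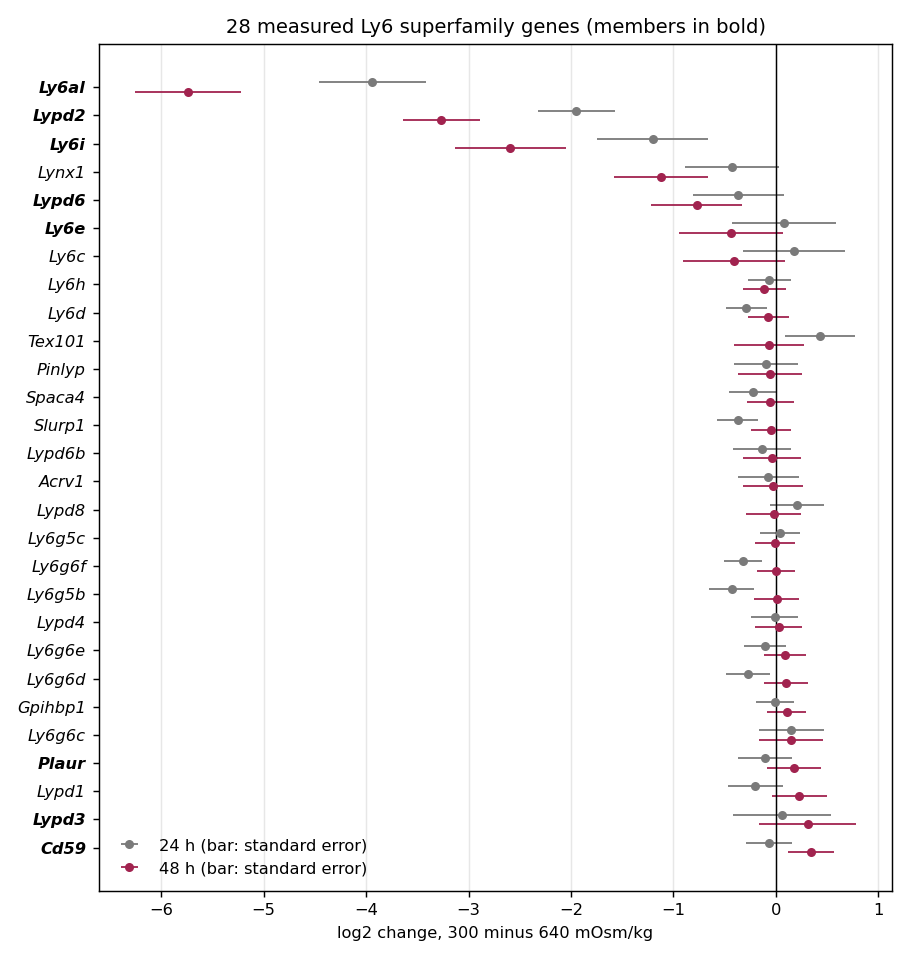
Log2 change, 300 minus 640 mOsm/kg, of the 28 measured Ly6 superfamily genes at 24 h (grey) and 48 h (red), with standard errors, ordered by the change at 48 h and with the 8 members in bold. Ly6al, Lypd2 and Ly6i lie far left of the rest, at -5.74, -3.27 and -2.59 at 48 h, and Lynx1 follows at -1.12.

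The 3 members with the largest changes share their place. In the RefSeq gene order of rat chromosome 7, Lypd2 opens and Ly6al closes a stretch of 21 protein-coding genes that also holds Ly6i and Ly6e, of which 10 were measured here. Both ends of the stretch are members selected on their falls, so no count of changes is read from it. Measured neighbours between them varied. Lynx1, close to Lypd2, had the -1.12 ± 0.46 (SE) given above, with its arrays at 300 all below those at 640. Ly6d, a Ly6 gene of stratified epithelia, had -0.07 ± 0.20 (SE) at 48 h, and the steroid hydroxylase genes Cyp11b1, Cyp11b3 and Cyp11b2 had between -0.07 and 0.15. Ly6c, which marks myeloid and endothelial cells in rodents, had -0.41 ± 0.50. Outside the stretch, the immediate early gene Arc had -1.05 ± 0.24 (adjusted p = 0.0652, and 0.0100 on centred arrays), Slurp1, a secreted LU domain protein next to Lypd2, -0.05 ± 0.20 and Ly6h, beyond Ly6al, -0.11 ± 0.21. Arc was named after its values were seen. The stretch also holds the near copies Ly6al1 and Ly6cl1, which were not measured under 1 symbol, and whether probes of Ly6al, Ly6i and Ly6c also bind transcripts of such relatives was not tested. Lypd3 and Plaur lie on chromosome 1, and Lypd6 and Cd59 on chromosome 3.

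**Figure D3:**
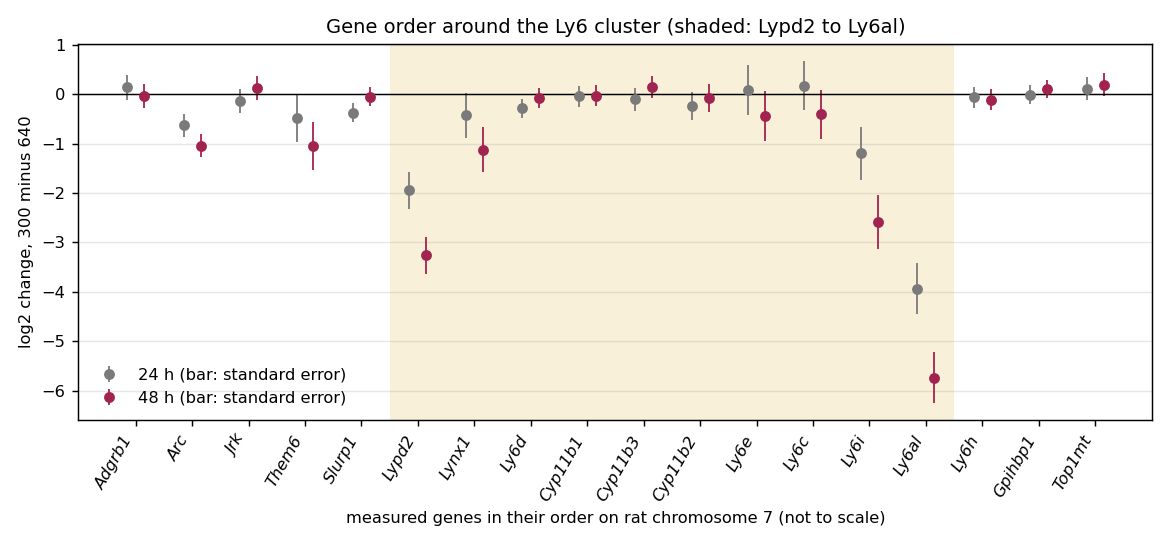
Log2 change, 300 minus 640 mOsm/kg, of the measured genes in their RefSeq order on rat chromosome 7, at 24 h (grey) and 48 h (red) with standard errors. Lypd2 at 1 end of the shaded stretch and Ly6i and Ly6al at the other are lower at 300, at -3.27, -2.59 and -5.74 at 48 h, Lynx1 beside Lypd2 is at -1.12, and the Cyp11b genes between them lie near 0.

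Promoter sequences, 250 bases before to 50 after the gene start, were matched in RefSeq (build GRCr8) for 4 of the 8 members, Ly6i, Lypd3, Lypd6 and Plaur. They were searched on both strands for TTCNNNGAA, the form of sites for STAT factors, for GAAA followed by any 2 bases and GAAA, as in interferon response elements, and for TGGAAA, the core of sites for Nfat5, which drives transcription under hyperosmotic stress. None of the 4 windows held more than 1 match, so no matches overlap. Both promoters with a match are shown, that of Ly6i, called at 48 h (chr7:108948017-108948316, minus strand), and that of Lypd6, not called (chr3:54896368-54896667, plus strand). Each runs 5′ to 3′ on the strand of its gene, with the match in capitals.
Ly6i: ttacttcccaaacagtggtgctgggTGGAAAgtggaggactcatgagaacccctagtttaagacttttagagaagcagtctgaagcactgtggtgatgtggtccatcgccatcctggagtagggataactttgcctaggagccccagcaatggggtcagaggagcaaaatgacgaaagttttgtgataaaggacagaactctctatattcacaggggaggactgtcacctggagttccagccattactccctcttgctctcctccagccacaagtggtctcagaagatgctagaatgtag
Lypd6: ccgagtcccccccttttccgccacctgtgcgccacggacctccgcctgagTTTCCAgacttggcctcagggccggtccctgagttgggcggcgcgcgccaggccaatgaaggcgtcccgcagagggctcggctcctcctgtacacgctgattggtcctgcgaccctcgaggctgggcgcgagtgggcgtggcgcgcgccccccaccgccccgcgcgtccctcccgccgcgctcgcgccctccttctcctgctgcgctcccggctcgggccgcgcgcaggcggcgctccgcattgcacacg
Ly6i holds TGGAAA once, with its first base at position -225 from the gene start, and Lypd6 holds it once on the opposite strand, where it reads TTTCCA, at position -200. Among all 33469 promoters of this length 22.7% hold TGGAAA, 8.87% TTCNNNGAA and 3.92% the interferon form. The windows of Lypd3 and Plaur hold none of the 3, and Ly6i and Lypd6 hold none of the other forms. The match is a description of letters and not of binding. No window was matched for Ly6al and Lypd2, the members with the largest changes, so called and uncalled members cannot be compared by it.

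The genes of most like pattern were found by the root mean square difference over the 12 arrays, after each array was centred on its median and each gene on its mean. This measure favours genes whose changes have a like size. For Ly6al the nearest of 13255 genes were Aqp2 (0.873), the collagenase Mmp13 (1.04), the protease inhibitor Serpina3n (1.13), Lypd2 (1.19) and the serine protease-like Prss35 (1.31), where the median gene was at 2.56. For Lypd2 they were Fxyd2 (0.541), which regulates the sodium pump, the transporter Slc4a11 (0.560), the membrane mucin Muc1 (0.568), Serpina3n (0.585) and the water channel Aqp1 (0.586), with the median gene at 1.47. For Ly6i they were Slc4a11 (0.487), the urea transporter Slc14a2 (0.500), the ETS factor Elf5 (0.516), Otulinl (0.530) and the repressor Bcl6 (0.534), with the median gene at 1.20. For Plaur the nearest, Tpgs1 (0.140), Arl2bp (0.140), Pbx4 (0.141), Tusc2 (0.144) and Tmem120a (0.144), were genes with changes between -0.08 and 0.32, and the median gene was at 0.364.

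Partners of the members were examined by lists of their pathways. Beside the lists, limma gave an unadjusted p under 0.05 for 421 of all 14506 genes at 24 h and 687 at 48 h. On centred arrays it did so for 790 and 1186. Among 17 measured partners of the urokinase receptor 0 were called at 24 h, with 2 at an unadjusted p under 0.05, and 1 rose at 48 h. This was Itgb3, the integrin beta 3 subunit, which pairs with the alpha v subunit as a vitronectin receptor. It had means of 7.72 ± 0.35 at 640 and 8.88 ± 0.26 at 300 after 24 h, and 7.63 ± 0.35 and 8.82 ± 0.34 after 48 h (SD, n = 3). Its change at 48 h was 1.18 ± 0.26 (SE, adjusted p = 0.0495), and at 24 h 1.16 ± 0.26 (adjusted p = 0.188, and 0.0167 on centred arrays). The ligand urokinase, Plau, was at 8.72 ± 0.23 at 640 and 7.83 ± 0.22 at 300 after 48 h, without overlap, and differed by -0.89 ± 0.26 (adjusted p = 0.276, with 0.0210 after centring). The tissue-type activator Plat had -0.90 ± 0.28 (adjusted p = 0.335, and 0.0621 on centred arrays). Plaur, the receptor of urokinase, had 0.18 ± 0.27 (SE) in the same comparison. The median of the list was -0.09 at 24 h and -0.05 at 48 h.

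Of 19 measured genes of complement and its regulators 0 were called at either time on the deposited values, with 2 and 3 at an unadjusted p under 0.05. On centred arrays C3, the central component, was called higher at both times. It had means of 8.98 ± 0.38 at 640 and 10.15 ± 0.37 at 300 after 24 h (change 1.17 ± 0.24 SE, adjusted p = 0.111, and 0.00412 on centred arrays). After 48 h it had 8.73 ± 0.13 and 9.54 ± 0.19 (change 0.82 ± 0.24, adjusted p = 0.250, and 0.0145 on centred arrays). Other regulators of complement on the list had no called change. Cd55, which speeds the decay of convertases, had 0.56 ± 0.37 and 0.33 ± 0.37 (SE) at 24 h and 48 h, and Cd46, a cofactor for cleavage of C3b, -0.34 ± 0.34 and -0.63 ± 0.34. The regulator Cr1l, with group means from 10.22 to 10.74, had -0.10 ± 0.29 and -0.53 ± 0.29. After 48 h its arrays at 300 all lay below those at 640.

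The enzymes that make and attach GPI anchors, 24 measured, had 0 called genes at 24 h and 48 h, with 0 and 2 at an unadjusted p under 0.05 (1 and 2 on centred arrays, also with 0 called), and medians of 0.07 and 0.01. The 33 other GPI-anchored surface proteins measured had 0 called at either time, with 1 and 1 at an unadjusted p under 0.05 (2 and 3 on centred arrays, again with 0 called), and medians of -0.02 and -0.03. The 16 partners of Lypd3 and Lypd6 had 0 called, with 1 and 1 at an unadjusted p under 0.05 (2 and 1 on centred arrays, with 0 called). Among them Agr2, a ligand of Lypd3, had -0.05 ± 0.23 and -0.06 ± 0.23 (SE) and the Wnt coreceptor Lrp6 0.0049 ± 0.22 and -0.02 ± 0.22.

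Interferon-stimulated genes were set beside Ly6e. Of 26 measured, 0 were called at 24 h, with 9 at an unadjusted p under 0.05 and 1 called higher on centred arrays (Usp18). At 48 h 4 fell and 0 rose, and on centred arrays 8 fell and 1 rose. The antiviral GTPase Mx1 had means of 9.95 ± 0.14 at 640 and 5.92 ± 0.19 at 300 (SD, n = 3, change -4.03 ± 0.34 SE, adjusted p = 4.65e-05). The chemokine Cxcl10 had -2.66 ± 0.36 (adjusted p = 0.00163), and Ifit1, a binder of viral RNA, -1.94 ± 0.32 (adjusted p = 0.00780). Ifit3, its relative, had -1.58 ± 0.30 with an adjusted p of 0.0182. For the difference between times, the 4 genes called on centred arrays over all genes were Mx1, Ifit3, Oas1a and Cxcl10. Of the 26 genes of this list 20 were higher at 24 h and 19 lower at 48 h, with medians of 0.24 and -0.19. Ly6e had -0.44 ± 0.51 (SE) at 48 h, and whether it differs from these genes was not tested.

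**Figure D4:**
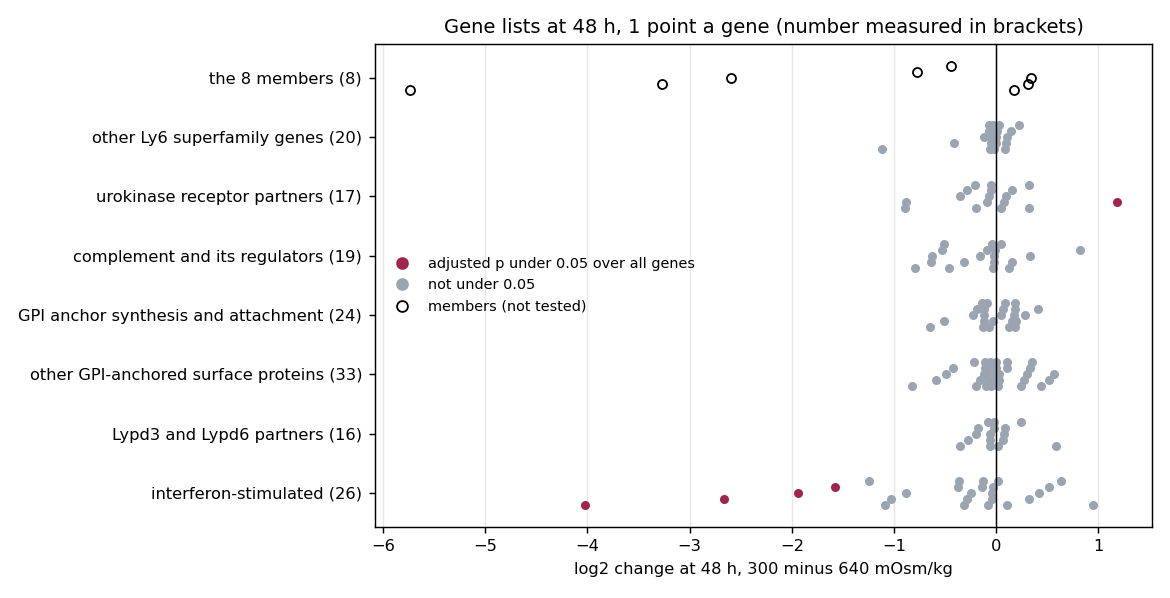
Log2 change at 48 h, 300 minus 640 mOsm/kg, of each gene of the lists named, 1 point a gene, with the number measured in brackets. The 8 members are open circles without a test, from -5.74 for Ly6al to 0.34 for Cd59, and in the other lists genes with an adjusted p under 0.05 over all genes are red, among which Itgb3 is the red point at 1.18 among the urokinase receptor partners.

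Ly6 genes are also made by leukocytes, endothelium and other cells that a primary culture can hold, so markers of those cells are given beside the members. At 48 h 10 of 13 leukocyte markers were lower and 0 were called (1, Csf1r, lower on centred arrays), with a summed log2 level from 10.46 to 10.83 at 300 and, overlapping it, from 10.78 to 11.13 at 640. All 8 endothelial markers were lower and 0 were called (1, Emcn, lower on centred arrays), with sums from 9.17 to 9.50 and from 9.60 to 10.09. At 24 h the sums overlapped, from 10.10 to 11.30 and 10.35 to 11.44 for leukocytes and from 9.09 to 10.15 and 9.53 to 10.64 for endothelium. On centred arrays the endothelial sums at 24 h did not overlap, from 2.20 to 2.56 at 300 and from 2.63 to 3.07 at 640. Fibroblast markers were 5 higher and 4 lower at 48 h, with 1 that rose (Postn), and intercalated cell markers 4 higher and 1 lower with 0 called. Of 5 markers of the loop of Henle 5 were lower at 48 h and 1, Aqp1, fell (Slc12a1 too on centred arrays), with sums from 9.20 to 9.36 at 300 and from 11.38 to 11.70 at 640. At 24 h 4 of the 5 were lower, Aqp1 fell, and the sums ran from 9.07 to 9.97 and from 10.98 to 11.95. These sums follow Aqp1, with means of 8.97 at 300 and 11.45 at 640 after 48 h, while Slc12a1, Cldn16, Kcnj1 and Umod had means from 4.32 to 5.89. Of 13 principal cell markers 9 were lower and 4 fell (Aqp2, Aqp3, Avpr2 and Slc14a2). No marker was listed at 0. For time on centred arrays, 7 of 9 fibroblast and 6 of 13 leukocyte markers were called higher at 48 h and 0 lower, beside 1.47% of all genes called. The principal cell, endothelial, loop of Henle and intercalated cell markers had 0 called there. On the deposited values 6 fibroblast markers were called higher, and of the leukocyte markers 1 higher and 2 lower. The part of other cells in the changes of Ly6al, Lypd2 and Ly6i, or in their levels over time, was not tested.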

How the data were processed

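Affymetrix Rat Gene 1.0 ST arrays measured RNA of 12 IMCD samples, 3 for each of 4 groups. Groups follow titles and treatment labels. For 2 groups an abbreviated code in the description names a different osmolality and was not used. The authors deposited log2 values per probe set, made with RMA in Affymetrix Power Tools per the submitters' processing notes; tool versions are not given in the sources used here. Of 27596 probe sets, 15310 had 1 symbol in the platform's gene table, 323 had several and 11963 were not listed. The probe set with the highest mean stood for each of 14506 genes. limma 3.58.1 in R 4.3.3 (lmFit, eBayes) fitted 1 mean per group over all genes, with 8 residual degrees of freedom and Benjamini-Hochberg adjustment over 14506 genes, called at 0.05. The number of arrays limits the precision. Replicate numbers did not pair the samples. The fit was tested on simulated data with 200 changed genes and noise drawn independently for each array. It called 39% of log2 changes of 1 at 24 h and 54% at 48 h, and 97% and 100% of changes of 2. Of 139 and 166 calls, 3 and 12 were false. The simulation held neither the differences in array scale nor the shared deviations of these arrays.

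The members, gene lists, motifs and rule for named genes were chosen with earlier results of these data known. The rule named the members, called or brightest genes of the family, up to 3 called genes and fixed partners of each list and the 5 genes of most like pattern to Ly6al, Lypd2, Ly6i and Plaur. Alternatives were centred arrays, cyclic loess, a filter on the dimmest 30% of genes, a trended and robust eBayes, the replicate number as a block, only the arrays of a time and leaving out each array. Leaving out both arrays of low median at 24 h, on deposited and centred values, was added after seeing the data.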

Additional observations from a re-analysis of the deposited data

How the results depend on the processing

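The log2 changes of the 8 members at both times moved by less than 1 SD of their replicates in all 320 recomputed values, and the called ones kept their sign. This outcome was largely fixed in advance. The dim filter, the eBayes settings, the replicate block and the fit of 1 time cannot change a difference of 2 group means. Nor can leaving out arrays of the other time. A group mean moves by less than 1 SD of that group when 1 of its 3 arrays is left out. Leaving out 1 array moved a called fold by over 1.5 times once, for Ly6al at 24 h (-3.27 without replicate 1 at 300, against -3.94). The number of Ly6 superfamily genes called at 48 h was 3 in each alternative other than leaving out 1 array, which gave 2 to 3. At 24 h it was 1, and 2 on centred arrays, with cyclic loess and with the replicate block (Lypd2 in addition), 0 in the fit of the 6 arrays of that time, and 0 to 2 when 1 array was left out. For time it was 4, and 0 on centred arrays, with cyclic loess, without the dimmest 30% of genes and on centred arrays without the pair of low median, 22 without that pair on deposited values, and 0 to 16 when 1 array was left out.

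Over all genes, 13 were called at 24 h, and 95 on centred arrays, 98 with cyclic loess, 3 in the fit of that time alone, 20 without the pair of low median and 4 to 24 when 1 array was left out. At 48 h 104 were called, and 269, 304, 217 and 250 under these settings, 303 on centred arrays without the pair, and 51 to 145 when 1 array was left out. For time 4824 were called, and 213 on centred arrays, 260 with cyclic loess, 1456 without the dimmest 30%, 11185 without the pair, 1450 on centred arrays without the pair, and 0 to 9078 when 1 array was left out. For the difference between times 0 were called, and 4 on centred arrays, 2 with cyclic loess, 1 with trend and robust settings, 1 without the pair, and 0 to 3 when 1 array was left out. The cause of these shifts was not tested. The planned use of other probe sets could not be made, since each member has 1.

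Same-numbered arrays at 300 and 640 deviated together only for replicate 2 (correlation over genes of 0.844 at 24 h and 0.795 at 48 h). Replicate 1 at 300 went with replicate 3 at 640 (0.825 and 0.780), and replicate 3 at 300 with replicate 1 at 640 (0.576 and 0.631). Apart from replicate 2, a shared number therefore did not mark arrays that deviated together. With the replicate block 15 genes were called at 24 h, 87 at 48 h, 4935 for time and 0 for the difference between times, and for the superfamily 2 at 24 h, 3 at 48 h and 5 for time. This block joined same-numbered arrays, so its counts are no check on the shared deviation of the other arrays. The labels name no pairing, and no block on the arrays that deviated together was run. The main fit counted their shared deviation as spread within groups. The SEs and p-values of the changes at 24 h and 48 h, and of the difference between times, may therefore be too large. By how much was not tested.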
